A study of Arabidopsis with 27 samples.

Results

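The genes of the mitochondrial genome were taken as every row of the deposited gene table whose identifier begins with ATMG, which gave 152 of 32824 rows. They were followed in 27 RNA-seq libraries of Arabidopsis rosette leaves. Transcripts of 37 of the 152 genes were above 0 in all 27 libraries, 84 were above 0 in some libraries, and 31 were listed at 0 in every library. The level of these transcripts moved with the replicate number of the library: libraries of number 2 held 88.3 ± 23.0 summed FPKM, against 169 ± 15.5 in number 3 (SD, n = 9 each, without ATMG01380). No ATMG gene passed the test for either treatment or either mutant when the number was left out of the fit. FPKM scales the fragments of a gene by its transcript length and by the depth of the library.

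Plant mitochondria keep a genome of their own. It encodes a small part of the respiratory chain, the ATP synthase, the cytochrome c maturation machinery and the mitochondrial ribosome, while nuclear genes encode the rest. Phage-type RNA polymerases imported from the cytosol transcribe it, and most of the transcripts are then edited, spliced and trimmed. Mature mitochondrial transcripts mostly carry no stable poly(A) tail, so their yield in a library depends on how the RNA was selected. In Arabidopsis a large copy of the mitochondrial genome also lies in the nucleus, near the centromere of chromosome 2. The identifiers beginning with ATMG were not paired with gene names in the tables used here, so the genes are named by identifier alone and no function is assigned to a single one.

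The plants were double mutants glr3.3glr3.6, named for the glutamate receptor-like channels GLR3.3 and GLR3.6, double mutants p2k1p2k2, named for the lectin receptor kinases P2K1 and P2K2 that bind extracellular ATP, and wild-type Col-0. A local leaf received extracellular ATP (eATP, per the labels 300 µM of the analogue βγmeATP), 100 mM L-glutamate (L-Glu), or mock buffer without either. Another, untreated leaf of the same rosette was frozen 30 min later. The plants were 4 weeks old and had grown under 10 h of light a day. Each of the 9 groups (3 genotypes by 3 treatments) held 3 libraries, and 8 plants were pooled for each library. A library is named by its group and replicate number, as in Col-0 mock 1. The labels do not say what libraries of one number share, whether a growth batch, a day or nothing.

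Summed FPKM over all genes ran from 740955 to 822758 per library. The depth of each library relative to Col-0 mock 3 was estimated from the commonest ratio of low nuclear genes between the libraries. This assumes that such genes step in whole fragments, which was not checked for them. The relative depth was 0.897 to 1.20 in number 1, 0.942 to 1.45 in number 2 and 0.902 to 1.30 in number 3. The absolute depth is unknown. The leaf mesophyll markers summed to between 32627 and 43825 FPKM in every library. The root markers RHD6, AT5G19890 and LRX1 and the senescence marker SAG12 were listed at 0 throughout. The root marker PYK10 was above 0 in 21 libraries, at up to 5.80 FPKM, and the senescence marker SAG101 ran from 28.0 to 54.6 FPKM. The genes that name the mutants went against a loss of transcript. GLR3.6 ran from 70.5 to 135 FPKM in libraries labelled glr3.3glr3.6, against 0.827 to 1.42 in Col-0, and GLR3.3 from 5.85 to 8.05 against 3.19 to 4.97. P2K2 ran from 6.15 to 37.7 FPKM in libraries labelled p2k1p2k2, against 0.351 to 0.967 in Col-0, and P2K1 from 3.44 to 10.2 against 0.917 to 2.18. Every mutant comparison is therefore one of libraries labelled so.

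Most ATMG transcripts were scarce. Of the 152 genes, 33 reached a mean of 1 FPKM over the 27 libraries, 64 had a mean between 0.1 and 1, and 24 were above 0 with a mean under 0.1. The median of the 121 detected genes was 0.328 FPKM, against 3.94 FPKM over all genes with a value above 0. Detection also varied: 20 genes were above 0 in 1 to 5 libraries, 42 in 6 to 19 and 22 in 20 to 26. Without ATMG01380, the ATMG genes took 0.0189% ± 0.00628 of the summed FPKM of a library (SD, n = 27), with a range of 0.00941% to 0.0306%.

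A few genes carried much of the signal. ATMG01390 averaged 31.4 ± 6.88 FPKM over the 27 libraries (SD), with a lowest value of 20.04 and a highest of 41.7. ATMG00020 followed at 9.31 FPKM (5.68 to 12.02), then ATMG01370 at 8.63 FPKM (1.39 to 17.2). Together these made up 34.4% of the summed mean FPKM without ATMG01380. ATMG01220 averaged 6.48 FPKM, ATMG01080 6.44, ATMG00660 4.14, ATMG01190 3.69, ATMG00690 3.13 and ATMG00480 3.13. ATMG01390 ranked 3635 among all 32824 genes by mean FPKM, and ATMG00480 ranked 13432. Below ATMG01390, each gene in this order lay closer to the next than its own SD over libraries.

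The same 2 genes of high level were the steadiest among the 37 genes found in every library. The coefficient of variation over the 27 libraries was 21.1% for ATMG00020 and 21.9% for ATMG01390, then 39.2% for ATMG00520, 39.3% for ATMG00590 and 39.6% for ATMG01170. It was largest for ATMG00640 (66.6%), ATMG01220 (63.2%), ATMG00110 (62.7%), ATMG00810 (62.4%) and ATMG00513 (61.1%). The fragment steps give a sense of how few fragments lay behind the scarce genes. Of 70 ATMG genes with enough low values to be checked, 29 fell on whole steps (within 0.15 of a step in at least 90% of their values up to 5 steps), and 1 step was worth 0.0484 to 0.564 FPKM with a median of 0.134. The highest library of ATMG00060 held 6.79 such steps and that of ATMG00010 held 2.09. ATMG00640 reached 16.6 steps and ATMG00810 reached 19.2. The share of their spread that is counting error was not tested.

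ATMG01380 switched between 0 and high values. It was listed at 0 in 21 libraries and between 105 and 203 FPKM in the remaining 6. These were glr3.3glr3.6 eATP 1 (170 FPKM), glr3.3glr3.6 eATP 2 (133 FPKM), glr3.3glr3.6 L-Glu 3 (203 FPKM), p2k1p2k2 eATP 2 (105 FPKM), p2k1p2k2 eATP 3 (191 FPKM) and p2k1p2k2 L-Glu 3 (138 FPKM). All 9 Col-0 libraries and all 9 mock libraries were listed at 0. Intermediate values did not occur, and the value can switch between repeats of one group, and an exact 0 can be an estimate that failed rather than a lack of transcript. ATMG01380 was not called in any comparison of treatment or genotype, and it was left out of all sums.

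Some pairs of ATMG genes shared values. ATMG00440 and ATMG01140 had the same value (within 0.1%) in 8 of the 8 libraries in which both were above 0. ATMG00430 and ATMG01150 did so in 4 of 4, ATMG00270 and ATMG01260 in 6 of 14, and ATMG00170 and ATMG00620 in 6 of 26. The first 2 pairs were not told apart by any such library, and the others differed in most of theirs. Near-identical copies that share fragments would give equal values, and so can low values that fall on the same whole step, so the separate levels of these pairs are uncertain.

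Libraries of number 2 were low in ATMG transcripts in all 3 genotypes. Summed FPKM without ATMG01380 had a lowest, median and highest value of 122, 172 and 228 in number 1, of 71.6, 76.2 and 140 in number 2, and of 148, 164 and 187 in number 3. The number 2 libraries all lay below the number 3 libraries, while number 1 reached down to 122 and overlapped number 2. The mean of number 2 was 0.521 times that of number 3 and 0.510 times that of number 1. The count of ATMG genes above 0 followed the same order, with 69 to 95 genes per library in number 1, 60 to 71 in number 2 and 77 to 90 in number 3. The median relative depth was 0.989 in number 1, 1.03 in number 2 and 1.01 in number 3.

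**Figure D1:**
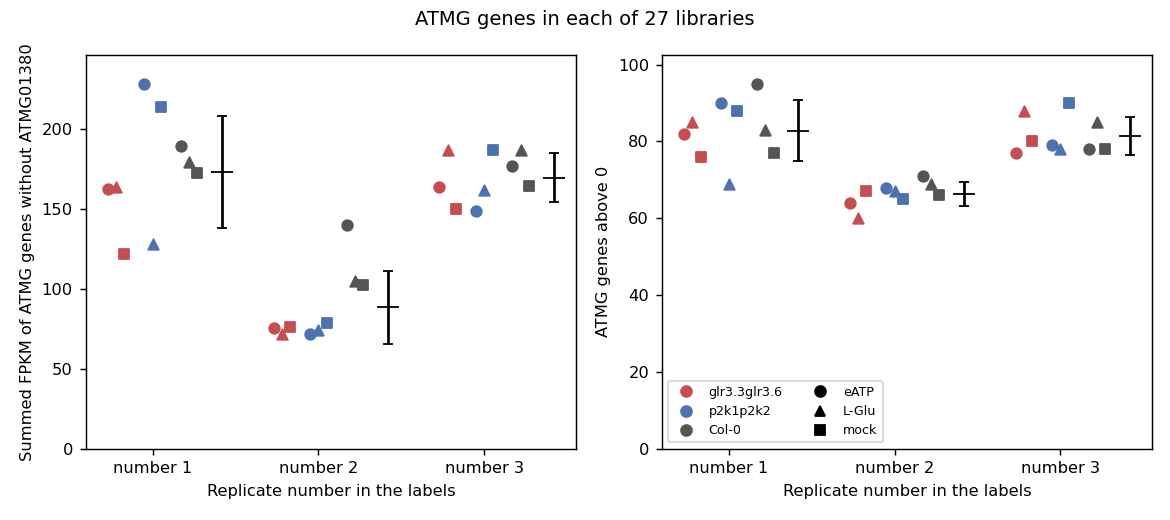
Each point is 1 of 27 libraries, placed by its replicate number, with colour for genotype and shape for treatment; the black bars are the mean ± SD of the 9 libraries of a number. The left panel gives the summed FPKM of the ATMG genes without ATMG01380 and the right panel the number of ATMG genes above 0. Number 2 lies between 71.6 and 140 FPKM, below all libraries of number 3 (148 to 187).

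The difference between numbers was spread over nearly all tested genes. Number 2 was lower than number 3 in 27 of the 33 tested ATMG genes and higher in 0, where 13.6% of all 16577 tested genes were called lower and 26.4% were called in either direction (limma, log2(FPKM + 1), number and group as terms, adjusted p under 0.05 over all genes). The estimate was negative for 33 of 33 genes, with a median of -0.72 on the log2 scale, against a median of -0.00 over all tested genes. The called genes ran from -1.33 to -0.45, and their mean FPKM in number 2 was 0.185 to 0.686 times that in number 3, with a median of 0.471. The mean of number 2 was also below that of number 3 for 37 of the 37 genes detected in every library. For single genes the spread between libraries was wide: all 9 values of number 2 lay below all 9 of number 3 in 2 of the 33 tested genes, ATMG00020 and ATMG01360, where the background was 1.63%.

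The clearest of these genes had few overlapping values. ATMG00020 had a lowest, median and highest value of 5.68, 7.12 and 9.77 FPKM in number 2, against 10.1, 11.2 and 12.02 FPKM in number 3. It was lower by a log2 difference of -0.58 ± 0.06 (SE, adjusted p = 1.75e-06), the smallest p among the 33 genes. ATMG01190 had 0.994, 1.41 and 3.52 FPKM in number 2, against 3.34, 4.20 and 6.29 FPKM in number 3 (-0.99 ± 0.12, adjusted p = 1.03e-05). In ATMG01190 only the highest number 2 library, Col-0 eATP 2, reached into the range of number 3. ATMG00110 had 0.141, 0.523 and 1.70 FPKM in number 2, against 1.33, 2.86 and 3.50 FPKM in number 3 (-1.20 ± 0.15, adjusted p = 1.67e-05). ATMG01390, the gene of highest steady level, had 20.04, 24.0 and 30.6 FPKM in number 2, against 30.4, 35.7 and 41.1 FPKM in number 3 (-0.53 ± 0.08, adjusted p = 0.000109). The groups of ATMG01390 touched at 1 library. ATMG01360 had 0.352, 0.968 and 1.53 FPKM in number 2, against 1.80, 2.33 and 3.16 FPKM in number 3 (-0.77 ± 0.12).

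Other called genes had the same sign at other sizes. Among the 10 genes of smallest p, the log2 difference was -0.93 for ATMG01080, -0.82 for ATMG00180, -0.70 for ATMG00090, -0.69 for ATMG00370 and -0.76 for ATMG00410. ATMG01220 had the lowest estimate, with 0.360, 1.49 and 10.3 FPKM in number 2, against 3.52, 8.99 and 15.3 FPKM in number 3 (-1.33 ± 0.36, adjusted p = 0.01005). Its groups overlapped widely. The 6 genes not called were ATMG00070, ATMG01000, ATMG01210, ATMG00980, ATMG00170 and ATMG01380, with adjusted p between 0.1001 and 0.609.

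**Figure D2:**
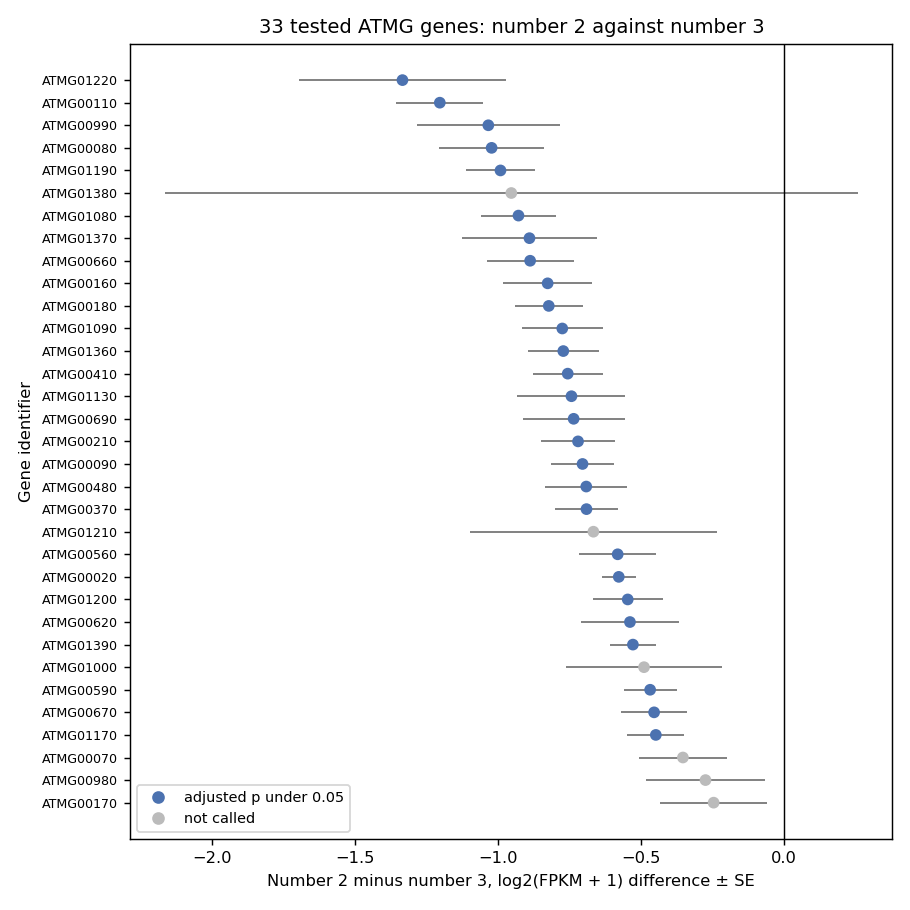
Each row is 1 of the 33 tested ATMG genes, with the log2(FPKM + 1) difference of number 2 minus number 3 and its SE on the horizontal axis. Blue points passed an adjusted p of 0.05 and grey points did not. All 33 estimates lie left of 0, from -1.33 (ATMG01220) to -0.25 (ATMG00170).

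Number 1 was set against the mean of numbers 2 and 3, a contrast that the low values of number 2 raise by themselves. It was higher than that mean in 19 of the 33 ATMG genes and lower in 0, where 18.5% of all tested genes were called higher, 34.7% lower and 53.2% in either direction (limma, adjusted p under 0.05). The median log2 difference was 0.37 over the ATMG genes, against -0.07 over all tested genes, and 32 of 33 were positive. ATMG00670 had a lowest, median and highest value of 1.20, 2.19 and 3.88 FPKM in number 1, against 0.423, 0.679 and 1.26 FPKM in number 2 and 0.683, 1.191 and 2.25 FPKM in number 3 (0.65 ± 0.10, adjusted p = 3.00e-05). ATMG00660 had 4.56, 5.85 and 7.06 FPKM in number 1, against 0.666, 1.95 and 4.70 FPKM in number 2 and 2.61, 4.04 and 7.24 FPKM in number 3 (0.75 ± 0.13, adjusted p = 0.000112). In both genes number 1 overlapped number 3 more than number 2. The log2 difference was 0.56 for ATMG00090, 0.57 for ATMG01190, 0.52 for ATMG00370, 0.54 for ATMG01360, 0.29 for ATMG01390, 0.64 for ATMG00080, 0.42 for ATMG00410 and 0.33 for ATMG01170. Against number 3 alone, a contrast added after these data were seen, number 1 was higher in 2 of the 33 ATMG genes and lower in 2, where 14.7% of all tested genes were called higher, 28.2% lower and 42.9% in either direction. The median there was 0.07, and the summed level of number 1 was 1.02 times that of number 3. The called genes were ATMG00670 (0.42 ± 0.12, adjusted p = 0.00636) and ATMG00980 (0.52 ± 0.21, adjusted p = 0.0491), which were higher, and ATMG00020 (-0.19 ± 0.06, adjusted p = 0.0143) and ATMG01080 (-0.37 ± 0.13, adjusted p = 0.0286), which were lower. Against the mean of numbers 2 and 3, ATMG00020, at 7.501 to 11.2 FPKM in number 1, was not called (0.10 ± 0.05, adjusted p = 0.129). The 9 values of number 2 lay below all 9 of number 1 in 0 of the 33 genes, where the background was 3.02%.

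The number took a larger share of the variance of the ATMG genes than of a typical gene. It held a median of 52.4% of the variance of log2(FPKM + 1) over the 33 tested ATMG genes (5.07% to 71.9%), against a median of 31.4% over all 16577 tested genes. The 9 groups held a median of 19.03% in the ATMG genes. Both are raw shares of the sum of squares, and 9 groups take a larger share by chance than the number does. No chance share was computed, and the group share over all genes is not given. The 19.03% therefore does not show an effect of group. These shares are given as a description.

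**Figure D3:**
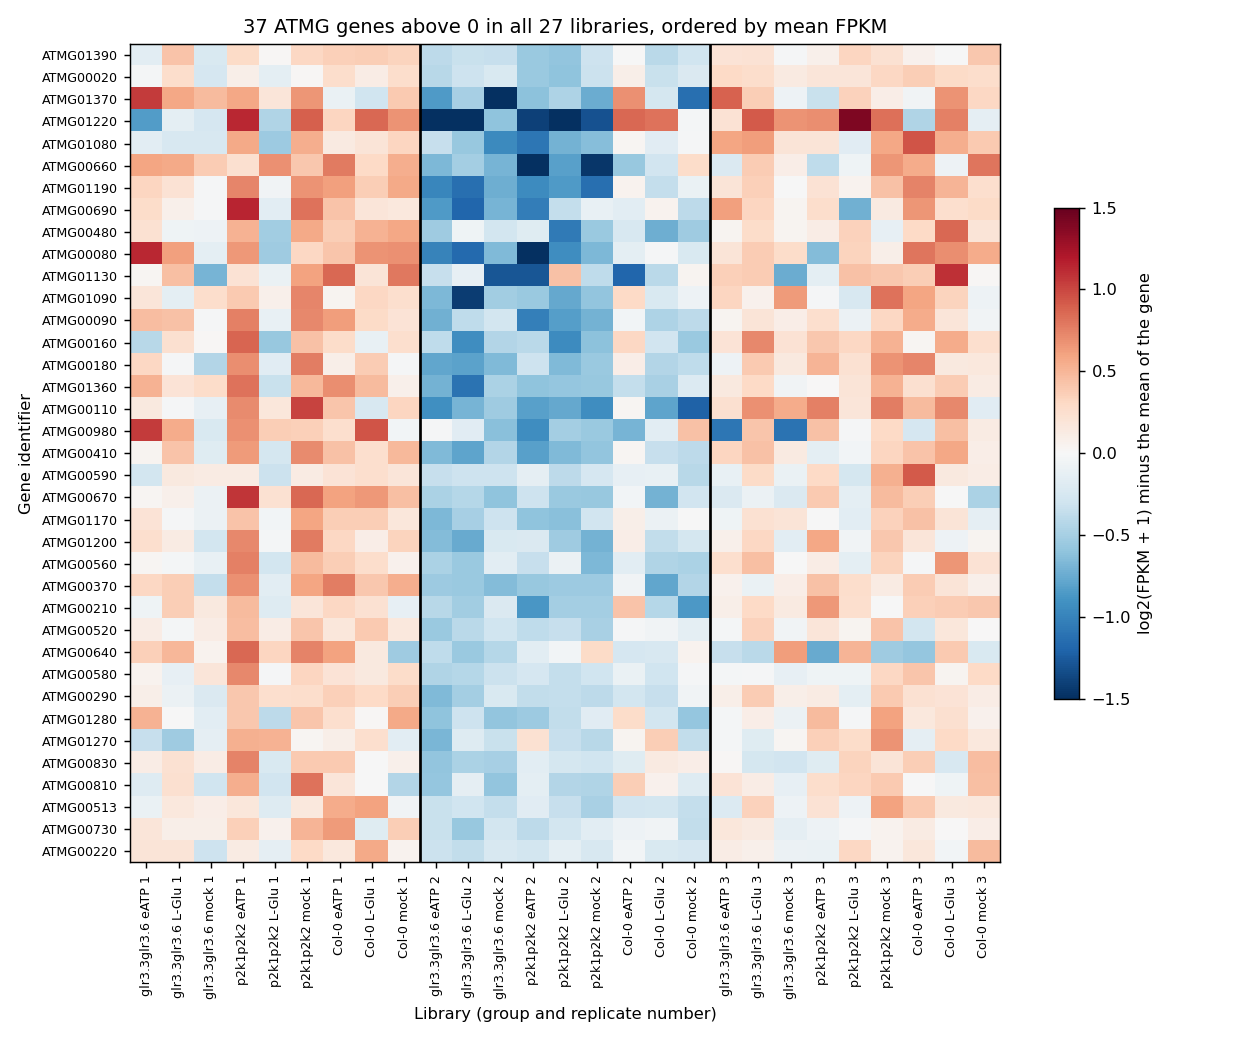
Rows are the 37 ATMG genes above 0 in all 27 libraries, from the highest mean FPKM at the top, and columns are libraries in blocks of number 1, 2 and 3. Colour gives log2(FPKM + 1) minus the mean of the gene, cut at 1.5 in both directions. The block of number 2 is blue in most cells, with the Col-0 libraries of that block paler than the mutant libraries, and p2k1p2k2 eATP 1 and p2k1p2k2 mock 1 are among the reddest columns.

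Within number 2, the libraries of the mutants lay lower than those of Col-0. Summed FPKM without ATMG01380 was 75.7, 71.9 and 76.2 in glr3.3glr3.6 (eATP, L-Glu and mock), 71.6, 74.4 and 78.4 in p2k1p2k2, and 140, 105 and 102 in Col-0. All 6 mutant libraries of number 2 were below all 3 Col-0 libraries of that number. In number 3 the sums were 167 ± 18.6 in glr3.3glr3.6, 165 ± 19.6 in p2k1p2k2 and 176 ± 11.4 in Col-0, and in number 1 they were 149 ± 23.9, 190 ± 54.1 and 180 ± 8.72 in the same genotypes (SD, n = 3 each). The ratio of number 2 to number 3 was 0.448 in glr3.3glr3.6, 0.452 in p2k1p2k2 and 0.656 in Col-0. Fits within a single genotype, each from 9 libraries, were counted in either direction. Between numbers 2 and 3 they called 5 of 33 ATMG genes in glr3.3glr3.6 (93 of 16577 over all), 14 in p2k1p2k2 (1571 over all) and 0 in Col-0 (0 over all).

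The difference in that contrast between genotypes was tested, a test chosen after these data were seen, and did not pass. The number 2 against number 3 contrast of glr3.3glr3.6 minus that of Col-0 had a median log2 difference of -0.29 and was negative for 25 of 33 ATMG genes, with 0 called (limma, 3 at an unadjusted p under 0.05, smallest adjusted p = 0.839). For p2k1p2k2 minus Col-0 the median was -0.39, negative for 26 of 33, with 0 called (3 at an unadjusted p under 0.05, smallest adjusted p = 0.204). The percentage called over all tested genes was 0 in both. ATMG01220 had the smallest p in both tests. In number 2 it stood at 1.03, 0.975 and 3.07 FPKM in glr3.3glr3.6 (eATP, L-Glu and mock), 1.34, 0.360 and 1.49 FPKM in p2k1p2k2, and 10.3, 9.86 and 5.05 FPKM in Col-0. In number 3 it stood at 6.17, 10.7 and 8.88 FPKM in glr3.3glr3.6, 8.99, 15.3 and 9.98 FPKM in p2k1p2k2, and 3.52, 9.48 and 4.64 FPKM in Col-0. The mutants were thus below Col-0 in number 2 and mostly not so in number 3. The difference of the contrasts was -3.10 ± 0.50 for p2k1p2k2 and -2.38 ± 0.50 for glr3.3glr3.6 (SE, adjusted p = 0.204 and 0.839).

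The nuclear stretch of chromosome 2 that holds a copy of the mitochondrial genome moved with the ATMG genes. It was taken as the identifiers AT2G07667 to AT2G07835, 90 rows, of which 17 were tested. The plan took the whole range. Setting ABCC13 and MCM5 apart was outside the plan, and the other rows were not checked for being copies. Number 2 was lower than number 3 in 13 of the 15 tested genes other than ABCC13 and MCM5 and higher in 0, with a median log2 difference of -0.69, where 13.6% of all tested genes were called lower. Number 1 was higher than the mean of numbers 2 and 3 in 13 of 15, where 18.5% of all were called higher. In that contrast MCM5 was called lower (limma, -0.33 ± 0.09, adjusted p = 0.00342) and ABCC13 was not called. Against number 3 alone, 0 of 15 were called (limma, 1 at an unadjusted p under 0.05). AT2G07671, the gene of highest level there, averaged 8.30 ± 2.89 FPKM in number 2, against 18.2 ± 3.61 FPKM in number 3 (SD, n = 9 each, log2 difference -1.08 ± 0.12, adjusted p = 3.68e-06). AT2G07698 averaged 1.91 ± 1.02 FPKM in number 2, against 4.60 ± 1.04 FPKM in number 3 (-0.996 ± 0.12, adjusted p = 1.19e-05). ABCC13, a transporter gene, and MCM5, which encodes a subunit of the replicative helicase, lie in this stretch of identifiers and had estimates of the other sign, 0.18 ± 0.07 and 0.23 ± 0.10, that were not called (adjusted p = 0.0728 and 0.101). The stretch without these genes had summed FPKM of 71.2 ± 18.6 (number 1), 31.0 ± 8.87 (number 2) and 69.9 ± 12.5 (number 3), and its ratio to the ATMG sum stayed between 0.311 and 0.509 in the 27 libraries. Fragments from near-identical copies cannot be told apart in such a table, so which of the 2 genomes the fragments came from is uncertain for both sets.

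Chloroplast genes were lower in number 2 at a share close to that of all genes. Of the 58 tested genes (identifiers beginning with ATCG), number 2 was lower than number 3 in 7 and higher in 0, with a median log2 difference of -0.04, where 13.6% of all tested genes were called lower and 12.8% higher. Number 1 was higher than the mean of numbers 2 and 3 in 5 and lower in 2, where 18.5% of all were called higher and 34.7% lower. Chloroplast transcripts had summed FPKM of 1677 ± 473 for number 1, 1885 ± 824 for number 2 and 1709 ± 489 for number 3 (SD, n = 9 each), and the ranges of the numbers overlapped.

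**Figure D4:**
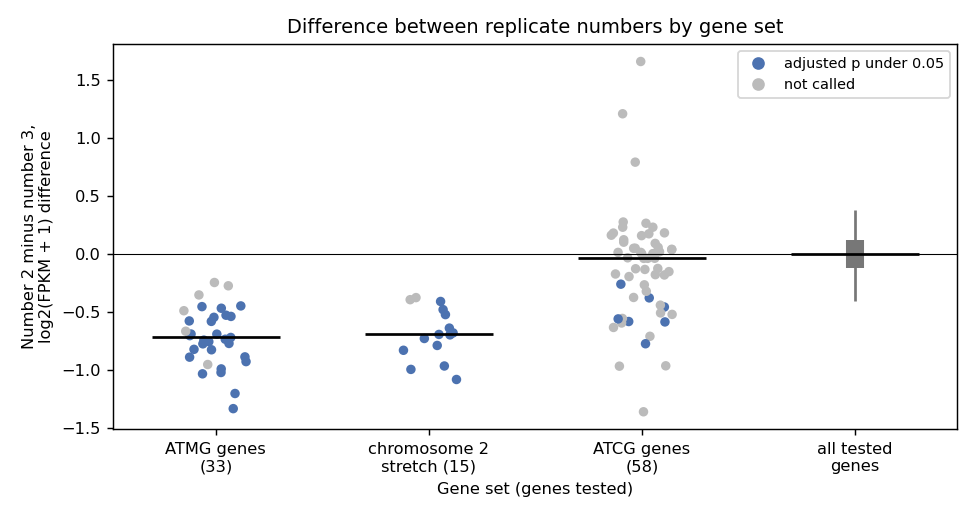
Each point is a gene, with the log2(FPKM + 1) difference of number 2 minus number 3 on the vertical axis; the horizontal bars are medians, and for all 16577 tested genes the thick and thin lines span the middle 50% and 90%. ATMG genes (median -0.72) and the chromosome 2 stretch without ABCC13 and MCM5 (median -0.69) lie below 0. The chloroplast genes scatter on both sides of it (median -0.04).

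Nuclear genes of mitochondrial function were counted from lists chosen with earlier results of these data known. Over all tested genes, 12.8% were called higher in number 2 than in number 3 and 13.6% lower. Of 20 tested nuclear subunits of the respiratory chain and ATP synthase, only AT3G15640 was called higher (limma, 0.19 ± 0.06, adjusted p = 0.0257) and 0 were lower. Neither count was above the share over all genes, and the median of the list was 0.03. The list summed to 1217 ± 81.8 FPKM in number 2, against 1199 ± 42.2 FPKM in number 3. Of 8 tested genes of mitochondrial transcription and RNA processing, 0 were called in either direction (limma, 2 at an unadjusted p under 0.05), with a median of -0.01. MGP3, an RNA polymerase of mitochondria, averaged 4.90 ± 0.918 FPKM in number 2, against 5.25 ± 0.834 FPKM in number 3 (-0.09 ± 0.08). The 2 genes of smallest p in that list were nMAT1 (0.18 ± 0.07) and AT5G46920 (-0.11 ± 0.05), with adjusted p = 0.0762 and 0.120.

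Some nuclear genes of the mitochondrial stress response differed as well. Of 7 tested, 4 were lower in number 2 than in number 3 and 0 were higher, with a median log2 difference of -0.63, where 13.6% of all tested genes were called lower. AOX1A, the alternative oxidase that bypasses the later complexes of the respiratory chain, had a lowest, median and highest value of 44.5, 55.2 and 76.8 FPKM in number 2, against 58.8, 87.1 and 119 FPKM in number 3 (-0.63 ± 0.06, adjusted p = 1.63e-06). NAC13, a transcription factor of mitochondrial retrograde signalling, had 2.98, 4.01 and 5.16 FPKM in number 2, against 5.84, 7.75 and 9.42 FPKM in number 3 (-0.84 ± 0.09, adjusted p = 1.47e-06). The NAC13 values did not overlap and those of AOX1A did. SOT12, a sulfotransferase that responds to stress, was lower by -0.86 ± 0.10 and AT2G21640 by -0.79 ± 0.10. NAC017, NDB2 and BCS1 were not called, with estimates of -0.03, -0.37 and 0.15.

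Number 1 was set against the mean of numbers 2 and 3 in these lists too, where 18.5% of all tested genes were called higher and 34.7% lower. The stress response genes were higher in number 1 in 6 of 7, with a median of 0.59. They were AOX1A (0.49), NAC017 (0.13), NAC13 (0.73), NDB2, an alternative NAD(P)H dehydrogenase (0.60), BCS1 (0.59) and SOT12 (0.70). The transcription and RNA processing genes were lower in number 1 in 5 of 8, with a median of -0.21. They were MGP3 (-0.39), EMB2730 (-0.22), AT5G46920 (-0.43), SHOT1 (-0.18) and RUG3 (-0.35). The respiratory chain genes were lower in 6 of 20, a share below that of all genes, with a median of -0.07, also the median of all genes to 2 decimals. These were ATP3, a subunit of the ATP synthase (-0.21), GLDH, which makes ascorbate and takes part in complex I assembly (-0.23), AT3G15640 (-0.44), the carbonic anhydrase-like complex I subunits GAMMA CA1 (-0.12) and GAMMA CA2 (-0.13), and AT5G08670 (-0.10).

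Some of the other cell type markers also differed by number, and their part in the ATMG result was not tested. Such differences were common: 26.4% of all tested genes were called between numbers 2 and 3. For number 1 against the mean of numbers 2 and 3 it was 53.2% (limma, adjusted p under 0.05). The root marker PYK10 was the only one of 4 root markers above 0, and it had 0.297 to 5.80 FPKM among number 1 libraries, 0 to 0.134 among number 2 and 0 to 0.425 among number 3. The 4 vascular markers summed to 127 to 147 FPKM for number 1, 149 to 171 for number 2 and 126 to 148 for number 3. The vascular sums of number 2 all lay above those of numbers 1 and 3. The 5 epidermal and guard cell markers summed to 311 to 454 FPKM for number 1, 331 to 421 for number 2 and 354 to 526.3 for number 3. The epidermal and guard cell ranges overlapped. The 4 flower markers summed to at most 0.826 FPKM in any library. The senescence marker SAG101 ran from 39.7 to 54.6 FPKM for number 1, 28.0 to 41.1 for number 2 and 32.8 to 41.6 for number 3. In whole leaves, fewer cells of a type and less mitochondrial RNA per cell cannot be told apart. Whether the RNA was selected alike in all numbers is not given and was not tested.

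ATMG genes varied together across libraries. After the mean of each group was removed, the correlation of log2(FPKM + 1) between pairs of the 33 tested genes had a median of 0.67 over 528 pairs, and 96.4% were positive. The closest pairs were ATMG00410 with ATMG01190 (r = 0.95), ATMG00090 with ATMG01190 (0.95), ATMG01170 with ATMG01190 (0.95), ATMG01190 with ATMG01200 (0.94) and ATMG00090 with ATMG01170 (0.94). ATMG01190 thus stood in 4 of the 5. When the mean of each number was removed as well, the median was 0.27 and 80.5% were positive, while ATMG01190 with ATMG01200 kept 0.85. These are descriptions over 27 libraries that share depth and number. Pairs of other genes were not computed, so the likeness is not shown to be particular to ATMG genes.

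The next comparisons ask whether treating a local leaf altered ATMG transcripts in the untreated leaf of each genotype. After eATP, 0 of the 33 ATMG genes were called against mock in glr3.3glr3.6, in p2k1p2k2 or in Col-0, where the percentage called over all tested genes was 0 in each (limma, 1, 1 and 0 ATMG genes at an unadjusted p under 0.05). The median log2 difference was 0.08 in glr3.3glr3.6, -0.04 in p2k1p2k2 and 0.22 in Col-0. In Col-0, 27 of the 33 estimates were positive, against 6903 of 16577 over all tested genes. The ATMG genes varied together across libraries, so these signs are not independent. Summed FPKM was 189, 140 and 177 in Col-0 eATP 1, 2 and 3, against 172, 102 and 164 in Col-0 mock 1, 2 and 3. The eATP library was above the mock library of its number in each case, by less than the spread between numbers. The gene of smallest p was ATMG00590, with 1.93, 1.33 and 3.78 FPKM in Col-0 eATP against 1.87, 0.905 and 1.74 FPKM in Col-0 mock (0.37 ± 0.24, adjusted p = 1). ATMG00210 was next in p (0.56 ± 0.36, adjusted p = 1). These groups overlapped.

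The mutants gave other single genes after eATP. In glr3.3glr3.6, ATMG01130 had 2.84, 1.96 and 3.82 FPKM after eATP against 1.31, 0.546 and 1.23 FPKM in mock (0.93 ± 0.46, adjusted p = 1). All 3 eATP libraries were above all 3 mock libraries. In p2k1p2k2 the same gene had 3.38, 0.549 and 2.40 FPKM after eATP against 4.70, 1.88 and 3.97 FPKM in mock (-0.61 ± 0.46, adjusted p = 1), with overlapping values. ATMG01380 had the smallest p in both mutants (adjusted p = 1 in each), from values listed at 0 in mock and in 1 of the 3 eATP libraries.

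After L-Glu, 0 of the 33 ATMG genes were called against mock in glr3.3glr3.6, in p2k1p2k2 or in Col-0, with 0 percent called over all tested genes (limma, 1, 0 and 0 at an unadjusted p under 0.05). The medians were 0.15, -0.36 and 0.11 in these genotypes. In p2k1p2k2, 28 of 33 estimates were negative, against 7558 of 16577 over all tested genes, and again the signs are not independent. Summed FPKM was 128, 74.4 and 161 in p2k1p2k2 L-Glu 1, 2 and 3, against 214, 78.4 and 187 in p2k1p2k2 mock 1, 2 and 3. The median within numbers 1, 2 and 3 was -0.72, -0.07 and -0.34, with the lowest in number 1. ATMG00590 had 1.04, 0.933 and 1.11 FPKM after L-Glu against 1.76, 1.14 and 2.68 FPKM in p2k1p2k2 mock (-0.46 ± 0.24, adjusted p = 1). The L-Glu libraries were all below the mock libraries, the nearest by a narrow margin. ATMG01170 was next in p (-0.49 ± 0.28, adjusted p = 1).

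ATMG01000 stood out by its values after L-Glu in Col-0. It had 2.56, 1.44 and 3.25 FPKM after L-Glu against 0.961, 0.545 and 0.529 FPKM in Col-0 mock (1.00 ± 0.51, adjusted p = 1). The 3 L-Glu libraries lay above the 3 mock libraries and also above the 3 Col-0 eATP libraries at 0.819, 0.499 and 0.427 FPKM. Between eATP and L-Glu in Col-0 its difference was -1.08 ± 0.51 (adjusted p = 0.825). In glr3.3glr3.6 it had 1.58, 0.473 and 2.47 FPKM after L-Glu against 0.512, 0.851 and 0.479 FPKM in mock. In p2k1p2k2 it had 2.49, 0.349 and 2.04 FPKM after L-Glu against 1.02, 0.484 and 1.02 FPKM in mock. The groups overlapped in both mutants, and the highest value of the gene was 7.55 FPKM in p2k1p2k2 eATP 1. In glr3.3glr3.6, ATMG01130 had 4.13, 2.46 and 3.91 FPKM after L-Glu, again above the 3 mock libraries (1.15 ± 0.46, adjusted p = 1). ATMG00980 in glr3.3glr3.6 (0.92 ± 0.46) and ATMG01210 in Col-0 (-0.85 ± 0.81) were next in p (adjusted p = 1 each). One step of ATMG01000 was worth 0.168 FPKM, so its Col-0 mock values rest on few fragments.

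The direct contrast of eATP with L-Glu called 0 ATMG genes in each genotype, with 0 percent called over all genes (limma, 0 in glr3.3glr3.6, 1 in p2k1p2k2 and 1 in Col-0 at an unadjusted p under 0.05). The medians were -0.07 in glr3.3glr3.6, 0.32 in p2k1p2k2 and 0.17 in Col-0. ATMG00170 in p2k1p2k2 had 2.60, 0.362 and 1.93 FPKM after eATP against 1.12, 0 and 0.222 FPKM after L-Glu (0.82 ± 0.36, adjusted p = 1), and its level is uncertain where it equals that of ATMG00620. Others of small p were ATMG00590 in p2k1p2k2 (0.42 ± 0.24, adjusted p = 1), ATMG00590 (-0.28 ± 0.24) and ATMG01090 (0.45 ± 0.41) in glr3.3glr3.6 (adjusted p = 1 each), and ATMG00980 in Col-0 (-0.64 ± 0.46, adjusted p = 0.925). ATMG01090 had 3.11, 1.27 and 3.51 FPKM after eATP and 2.26, 0.347 and 2.80 FPKM after L-Glu, and its estimate turned to -0.017 without L-Glu replicate 2. The differences between mutant and Col-0 responses, 4 in all, also gave 0 called ATMG genes and 0 percent over all genes (limma, 0 at an unadjusted p under 0.05 in each). The genes of smallest p with values above 0 were ATMG01130 (1.192 ± 0.65 for eATP and 1.135 ± 0.65 for L-Glu) and ATMG01090 (-0.74 ± 0.58 for L-Glu) in glr3.3glr3.6, and ATMG01170 (-0.56 ± 0.40 for eATP and -0.64 ± 0.40 for L-Glu) and ATMG00590 (-0.60 ± 0.34 for L-Glu) in p2k1p2k2, all with adjusted p = 1. Over the 33 genes the medians were -0.07 for eATP and 0.07 for L-Glu in glr3.3glr3.6, and -0.34 for eATP and -0.50 for L-Glu in p2k1p2k2, each with a median SE of 0.58. These comparisons share the mock and Col-0 libraries.

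**Figure D5:**
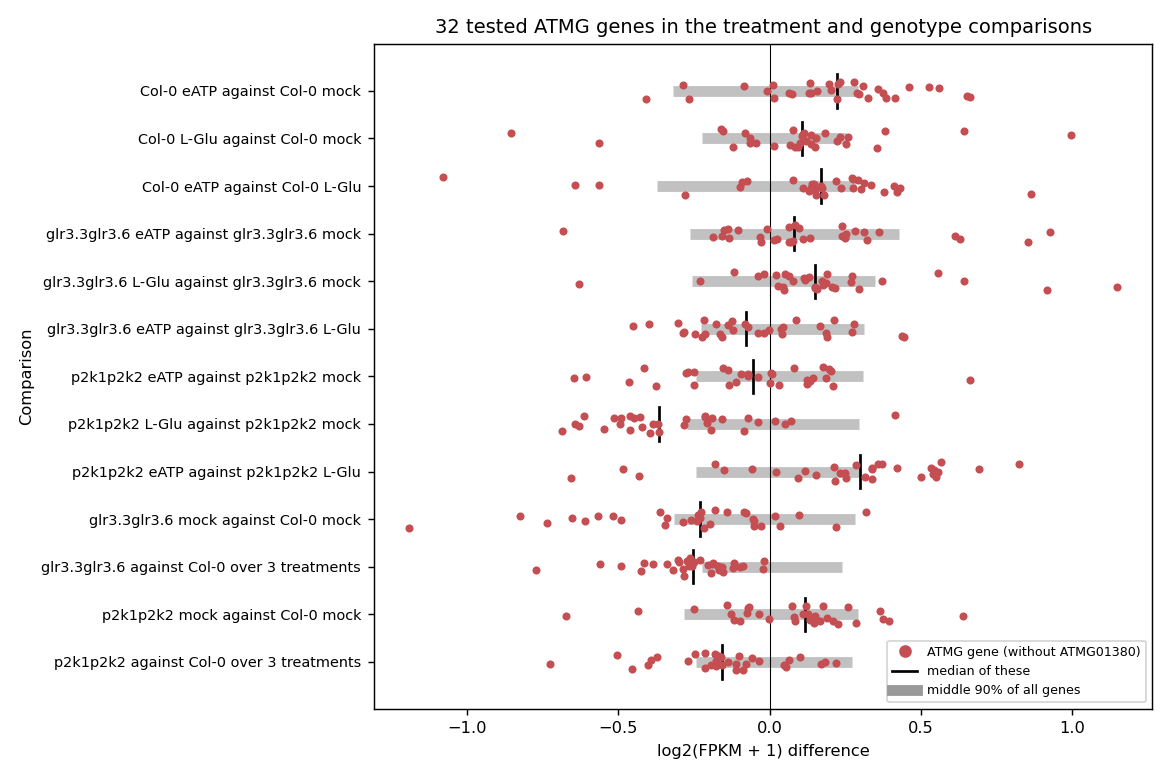
Each red point is 1 of 32 tested ATMG genes (ATMG01380 left out) in a treatment or genotype comparison, with the log2(FPKM + 1) difference on the horizontal axis; black ticks are their medians and grey bars span the middle 90% of all 16577 tested genes. No ATMG gene was called in any of the 13 rows, though medians reach -0.36 (p2k1p2k2 L-Glu against mock), and the ATMG genes scatter more widely than the grey bars.

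Precision limits these comparisons. In the fit without the number, the median SE of an ATMG gene was 0.41 on the log2 scale between 2 groups of 3 libraries, against 0.18 over all tested genes. It was 0.24 for a mutant against Col-0 over the 3 treatments. With the replicate number as a block, the median SE was 0.25 between 2 groups and 0.14 over the 3 treatments. Unless a block is named, the SE and p of single genes in these comparisons come from the fit without the number. This holds also where the numbers paired the libraries. A p that missed the threshold does not show that the levels were alike.

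Genotype was compared over the 3 treatments and in mock alone. Over the 3 treatments, 0 of 33 ATMG genes were called in glr3.3glr3.6 against Col-0, where 0.151% of all tested genes were called, and 0 in p2k1p2k2 against Col-0, where 0.109% were called (limma, 1 ATMG gene at an unadjusted p under 0.05 in each). In glr3.3glr3.6, 32 of 33 estimates were negative with a median of -0.25, against 0.02 over all genes. The medians within numbers 1, 2 and 3 were -0.22, -0.39 and -0.07. In p2k1p2k2, 25 of 33 were negative with a median of -0.16, against 0.04 over all genes, and the medians within numbers were 0.03, -0.34 and -0.10. Both medians were furthest from 0 in number 2. With the replicate number as a block, 1 gene was called in glr3.3glr3.6 (ATMG01190, -0.49 ± 0.12, adjusted p = 0.0346) and 2 in p2k1p2k2 (ATMG00020, -0.21 ± 0.06, adjusted p = 0.0388, and ATMG00080, -0.73 ± 0.18, adjusted p = 0.0255). Under that block 2.3% of all tested genes were called in glr3.3glr3.6 and 6.62% in p2k1p2k2, so these counts of 33 are near the background. By the rule used, a correlation over 0.1 in every pair of same-numbered libraries, the numbers did not pair all libraries of these comparisons. The lowest correlation was 0.037, so all were positive, and the rule does not show that the numbers can be ignored.

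ATMG00070 had the smallest p in glr3.3glr3.6. Its lowest, median and highest value was 0, 0.971 and 1.57 FPKM in the 9 glr3.3glr3.6 libraries, against 0.749, 1.80 and 2.52 FPKM in the 9 Col-0 libraries (-0.56 ± 0.18, adjusted p = 0.429). ATMG00080 had the smallest p in p2k1p2k2, with 0.156, 1.55 and 4.82 FPKM there, against 2.16, 4.45 and 5.45 FPKM in Col-0 (-0.73 ± 0.33, adjusted p = 0.346). ATMG00070 was next there (-0.37 ± 0.18, adjusted p = 0.386). Both pairs of groups overlapped. In mock alone, 0 ATMG genes were called in glr3.3glr3.6 (0.0483% of all genes) or p2k1p2k2 (0.0362%) against Col-0 (limma, 1 and 0 at an unadjusted p under 0.05), with medians of -0.23 and 0.11. ATMG01130 had 1.31, 0.546 and 1.23 FPKM in glr3.3glr3.6 mock against 5.52, 2.85 and 2.79 FPKM in Col-0 mock (-1.192 ± 0.46, adjusted p = 1). The 3 mutant libraries were all below the 3 Col-0 libraries, so the low mock values of this gene in glr3.3glr3.6 enter both its genotype and its treatment differences. ATMG00070 was next in p in glr3.3glr3.6 mock (-0.66 ± 0.32, adjusted p = 1). In p2k1p2k2 mock the smallest p were those of ATMG00660 (-0.67 ± 0.53) and ATMG00110 (0.64 ± 0.55), with adjusted p = 1 each.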

How the data were processed

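The deposited table holds FPKM per gene, made by the authors. Per the submitters' processing notes, Cufflinks and Cuffdiff (both 2.2.1) were used on the build TAIR10, along with HISAT2 2.2.1, SAMtools 1.19, FastQC 0.11.9 and, as a read trimmer, Trim Galore 0.6.7. Their settings, and how RNA was selected, are not given in the sources used here. FPKM hold no counts, so no counting intervals were computed.

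The 16577 genes whose mean reached 1 FPKM were fitted as log2(FPKM + 1), pseudocount 1, with limma 3.58.1 in R 4.3.3 (1 mean per group, all 27 libraries, 18 residual and 3.09 prior degrees of freedom). The number contrasts used group and number as terms (16 residual). Tests were two-sided and adjusted by Benjamini-Hochberg over all tested genes. Fold changes on this scale understate changes of low genes. The fit was tested on simulated data with independent noise per gene and without the number differences of these data. That test does not show the power of the treatment and genotype comparisons here. In the fit without the number, P values measure the spread between pooled repeats, which includes any shift between numbers. Those of the number contrasts measure the spread left after group and number were fitted. They do not measure how far further numbers would vary.

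Members and lists were chosen with earlier results of these data known. The genes named are the 10 of highest mean, the called genes up to 10 by p (otherwise the 2 of smallest p) per comparison, the 5 of largest and of smallest coefficient of variation, the 5 closest pairs and the called genes of each pathway list. ATMG01220 and ATMG01360 in number contrasts were described in more detail after their values were seen. The planned grouping of ATMG genes by function was not used, because 0 of 152 identifiers matched the reference gene table (TAIR10.1). Numbers were checked for pairing by correlating residuals of same-numbered libraries. Every pair was over 0.1 in 9 of the 17 treatment, genotype and response comparisons.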

Additional observations from a re-analysis of the deposited data

Results flagged for a closer look

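Within the 9 libraries of one replicate number, 33 sets of values were searched for a library that stood apart, and chance alone flags about 1 set in 20. In number 2 the library Col-0 eATP 2 stood apart as the highest. Its summed ATMG FPKM was 139.6, with the next library at 104.7. ATMG01390 was at 30.57 FPKM there, with the next at 24.67, ATMG00020 was at 9.774 FPKM, with the next at 7.674, and ATMG01370 was at 13.13 FPKM, with the next at 6.277. In number 3 the library Col-0 L-Glu 3 stood apart in ATMG00480, at 6.135 FPKM with the next at 4.004.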

How the results depend on the processing

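The 17 treatment, genotype and response comparisons kept 0 called ATMG genes under quantile, median-of-ratios or nuclear-total scaling, weighted libraries, no filter or a filter at 5 FPKM, a pseudocount of 0.1, a fit limited to the groups compared, a block on number within genotype, libraries of numbers 1 and 3 alone (chosen after the data were seen), and in all refits that left out a library (0 to 0). The exception was the additive replicate block, which called 1 in glr3.3glr3.6 against Col-0 over 3 treatments (381 genes over all, 2.3%) and 2 in p2k1p2k2 against Col-0 over 3 treatments (1098 over all, 6.62%). The numbers did not pair all samples there, with correlations of same-numbered libraries from 0.04 to 0.51 and to 0.66, and the block changed no call where they did.

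Number 2 against number 3 gave 27 called genes, 27 or 28 with the other pseudocount, scalings, weights or no group term, and 26 to 28 when a library was left out. It gave 46 of 121 with no filter, 5 of 6 at a minimum mean of 5 FPKM, and 5, 14 and 0 in glr3.3glr3.6, p2k1p2k2 and Col-0 libraries alone. Number 1 against the mean of numbers 2 and 3 gave 19 (4 against number 3 alone, added after the data were seen), with 14 to 22 when a library was left out, 33 of 121 with no filter, 2 of 6 at a minimum mean of 5 FPKM, and 5 and 1 in glr3.3glr3.6 and Col-0 libraries alone. More or fewer genes were tested under the filters, and a single genotype holds 9 libraries. Of named uncalled genes, ATMG01090 in glr3.3glr3.6 eATP against L-Glu ran from -0.017 (without glr3.3glr3.6 L-Glu replicate 2) to 0.75 when a library was left out, and ATMG01210 in Col-0 L-Glu against mock turned to 0.039 with numbers 1 and 3 alone. The planned sum without ribosomal RNA was not run. Depth limits scarce genes, of which 29 of 70 checked stepped in whole fragments.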
